A study of Homo sapiens with 6 samples.

Results

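LRP1 and its relatives in the LDL receptor family were followed across the 6 RNA libraries of MDA-MB-231 cells, a human breast cancer line that lacks hormone receptors. The members were the 10 genes LRP1, LRP3, LRP4, LRP5, LRP6, LRP8, LRP10, LRP12, VLDLR and the receptor chaperone LRPAP1, out of 29744 genes in the read counts. LRP1 was chosen by its own log2 fold changes against control, lower in shEZH2 cells and higher in shSUZ12 cells, so its values are a description without a test. The other 9 were taken as its family, by name. All 10 passed the filter on low counts, LRP3 through its control libraries alone. The 6 libraries came in 3 groups of 2. In both depleted lines PARP1 was knocked out (KO), and a short hairpin RNA (shRNA) targeted EZH2 in shEZH2 cells or SUZ12 in shSUZ12 cells. The control was the wild-type (WT) line with a nontargeting shRNA, so all 3 groups carried an shRNA. No group lacked PARP1, EZH2 or SUZ12 alone, and whether the knockout came from 1 clone is not given in the sources used here.

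Receptors of this family span the cell membrane once and bind ligands through cysteine-rich repeats outside the cell. LRP1 takes up protease-inhibitor complexes, matrix proteins and lipoproteins by endocytosis and is shed from tumour and stromal cells by metalloproteinases. LRP5 and LRP6 are Wnt co-receptors, LRP8 and VLDLR are the receptors of reelin, LRP4 is the agrin receptor that works with the kinase MuSK, and LRPAP1 keeps newly made receptors from binding ligand inside the endoplasmic reticulum. EZH2 and SUZ12 are subunits of the Polycomb complex that methylates histone H3 at silenced genes, often at promoters rich in CG dinucleotides.

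The 250 bases upstream of the RefSeq start are shown for LRP1 and LRP3, the member with opposite changes in the 2 lines and the member with the lowest counts in both of them. Capitals mark GC boxes (GGGCGG on either strand) and the E-box CACGTG. The stretches are from the plus strand of GRCh38.p14, chr12:57128233-57128482 for LRP1 and chr19:33194080-33194329 for LRP3.
LRP1: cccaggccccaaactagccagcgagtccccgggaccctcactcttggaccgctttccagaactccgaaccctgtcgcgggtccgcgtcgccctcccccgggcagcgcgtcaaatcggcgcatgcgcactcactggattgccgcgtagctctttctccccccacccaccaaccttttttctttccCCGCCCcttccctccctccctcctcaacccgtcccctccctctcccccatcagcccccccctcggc
LRP3: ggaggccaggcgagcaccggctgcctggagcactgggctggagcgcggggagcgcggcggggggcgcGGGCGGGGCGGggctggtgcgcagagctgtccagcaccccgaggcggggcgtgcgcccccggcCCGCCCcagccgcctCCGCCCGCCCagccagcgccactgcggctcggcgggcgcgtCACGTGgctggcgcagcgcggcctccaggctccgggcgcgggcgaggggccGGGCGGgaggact
The LRP3 stretch held 37 CG dinucleotides, more than or as many as 96.8% of 27305 promoters of the same length, and the LRP1 stretch held 20, at or above 70.2% of them. The median promoter held 11. LRP3 was not extreme in its family, since LRP5 held 43 and VLDLR 41. The RefSeq start of LRP3 lies inside the gene as GENCODE annotates it. LRP3 had 6 GC boxes, some of which overlap, and 1 CACGTG, while LRP1 had 1 GC box and 0 CACGTG matches. A GC box was found in 42.3% of all promoters and CACGTG in 6.5%. Neither stretch held a TATAAA or CACCTG match on either strand.

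Counts are given as CPM, read counts scaled to the effective size of each library. PARP1 stood at 26.5 to 33.6 CPM over the 4 knockout libraries and at 425 and 360.5 CPM in control. EZH2 was at 53.1 and 63.4 CPM in shEZH2 cells, 201 and 221 CPM in shSUZ12 cells and 199 and 188 CPM in control. SUZ12 was at 130 and 53.1 CPM (replicates 1 and 2) in shEZH2 cells, 76.0 and 70.3 CPM in shSUZ12 cells and 134 and 133 CPM in control. The targeted SUZ12 transcript was thus 1.82-fold lower in shSUZ12 cells, which was not called (edgeR adjusted p = 0.377), and shEZH2 replicate 2 had less of it than either shSUZ12 library. Of the line's markers, VIM was at 2941 CPM or more, ESR1 had 0 counts in every library and ERBB2 stood at 56.0 to 75.8 CPM. CD44, AXL, MSN and CAV1 were at 368 CPM or more, and lower in all 4 knockout libraries than in either control library. PGR and CDH1 were at 0.855 CPM or less, EPCAM at 5.20 to 16.4 CPM and GATA3 at 10.0 to 12.8 CPM. The leukocyte marker PTPRC was at 0.332 CPM or less and the liver marker ALB at 0.0964 CPM or less. CD68, also listed as a leukocyte marker, was at 78.2 to 113 CPM. The endothelial marker PECAM1 was at 4.47 to 7.87 CPM over the 4 knockout libraries and at 1.85 and 2.99 CPM in control. The shEZH2 replicates differed by more than 2-fold at 15.3% of tested genes, against 1.61% in shSUZ12 cells and 3.24% in control.

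LRP1 (on the plus strand of chromosome 12, 57128493 to 57213351 in GRCh38) was present at 34.8 and 28.5 CPM in shEZH2 cells, 160 and 156 CPM in shSUZ12 cells and 57.6 and 57.7 CPM in control. Both shEZH2 libraries lay below both control libraries and both shSUZ12 libraries above them, with no overlap between any of the 3 groups. The group means were 31.6 ± 4.45, 158 ± 2.84 and 57.7 ± 0.127 CPM in turn (SD, n = 2 each). LRP1 was 1.82-fold lower in shEZH2 cells and 2.74-fold higher in shSUZ12 cells than in control, and 5.00-fold lower in shEZH2 than in shSUZ12 cells. On the log2 scale these were -0.87 ± 0.18, 1.46 ± 0.18 and -2.32 ± 0.19 (SE of the fit). These values chose LRP1 and are given without a test. In bulk RNA, fewer cells that express a gene and less RNA of it per cell cannot be told apart.

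**Figure D1:**
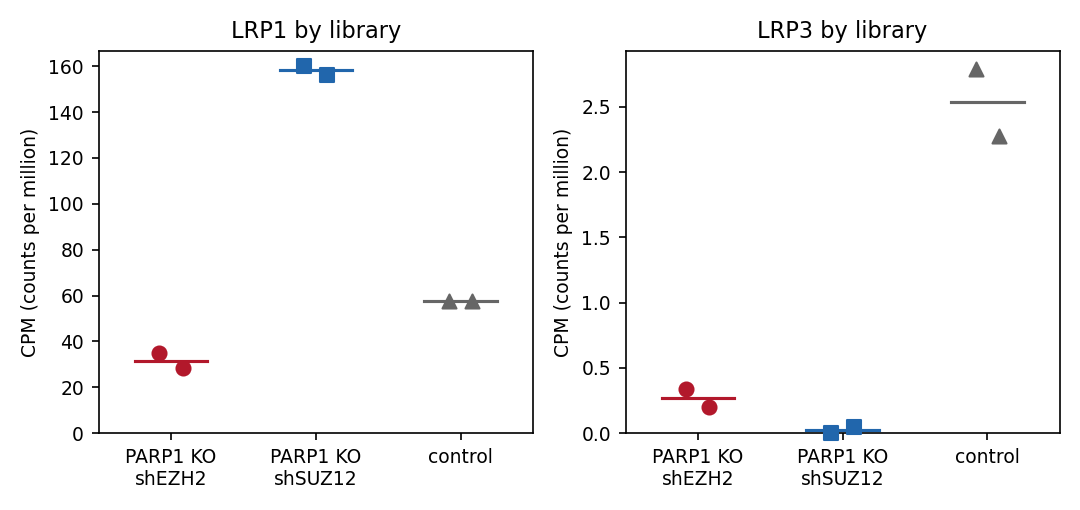
CPM of LRP1 (left) and LRP3 (right) in each library of PARP1 KO shEZH2, PARP1 KO shSUZ12 and control cells. Points are libraries and lines are the means of 2. LRP1 is near 30 CPM in shEZH2, near 160 in shSUZ12 and near 58 in control, and LRP3 is at 0.337 CPM or less in all 4 knockout libraries.

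LRP1 has the longest transcript of the members, and the shEZH2 replicates differed by transcript length. The longest annotated LRP1 transcript is 14897 bases, of which 13632 are coding. Among 1135 tested genes with a transcript of at least 8000 bases, the median of shEZH2 replicate 2 over replicate 1 was -0.82 on the log2 scale, against 0.57 for 2867 genes under 2000 bases. The same medians were -0.08 and 0.03 in shSUZ12 cells and 0.02 and -0.04 in control. LRP1 was 0.73 below the control mean in shEZH2 replicate 1, where the median of 281 genes of 12000 bases or more was 0.08, and 1.01 below it in replicate 2, where that median was -0.90. In replicate 1 LRP1 was low while the median long gene was near control. With each library's trend with length removed, LRP1 had a log2 fold change of -0.31 ± 0.23 in shEZH2 cells, 1.40 ± 0.23 in shSUZ12 cells and -1.71 ± 0.24 between shEZH2 and shSUZ12. The difference of shEZH2 cells from control thus shrank from -0.87 ± 0.18 to -0.31 ± 0.23 with this setting, and that of shSUZ12 cells moved little.

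**Figure D2:**
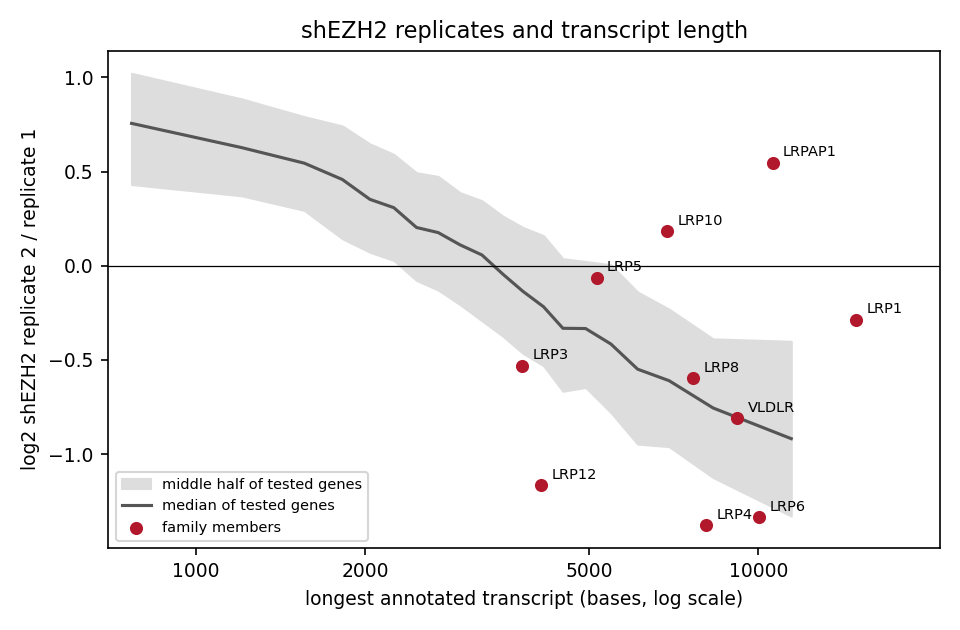
log2 ratio of shEZH2 replicate 2 to replicate 1 (vertical axis) against the longest annotated transcript in bases (horizontal, log scale). The grey line and band are the median and the quartiles of tested genes in 20 bins of length and red points are the family members. LRP6, LRP4 and LRP12 lie at -1.16 or below, and LRPAP1 and LRP10 lie above 0.

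Of the other 9 members, 1 was called lower in shEZH2 cells at an adjusted p under 0.05 and 0 higher. Of all 14192 tested genes 6.74% were called there, 3.54% higher and 3.2% lower. At an unadjusted p under 0.05 were 3 of the 9 members and 26.8% of all genes. In shSUZ12 cells 1 was called lower and 0 higher, where 1.61% of all genes were called, 0.719% higher and 0.888% lower. At an unadjusted p under 0.05 were 1 of the 9 and 13.1% of all genes. Between shEZH2 and shSUZ12 cells edgeR called 0 of 9, where it called 1.52% of all genes, 0.796% higher and 0.726% lower. DESeq2 also called 0 of 9 there, beside 1304 of all genes. At an unadjusted p under 0.05 were 4 of the 9 and 23.9% of all genes. The called member was LRP3 in both comparisons with control. LRP3 passed the filter on low counts through control alone, so these counts are a description and support nothing about the family. Libraries of the 2 groups did not overlap for 5, 3 and 5 of the 9 members in these 3 comparisons, where 54.4%, 61.2% and 54.6% of all genes did not overlap. The median log2 fold changes of the 9 were -0.35, 0.08 and -0.22, against -0.01, 0.00 and -0.04 over all tested genes.

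LRP3, a distant member with CUB domains whose ligands are little known, was scarce in both depleted lines and low in control. It had 7 and 4 counts in shEZH2 cells, 0 and 1 in shSUZ12 cells and 62 and 48 in control (chromosome 19, 33177603 to 33208867, plus strand). No knockout library came near a control library. LRP3 passed the filter through control alone. The same test over all genes with a count and no filter is therefore given beside each p from all 6 libraries. Fits without 1 library or with the length trend removed kept the filter. LRP3 fell by 3.19 ± 0.50 on the log2 scale in shEZH2 cells (adjusted p = 0.0165 by the quasi-likelihood test of edgeR, adjusted by Benjamini-Hochberg over all tested genes, as for every edgeR value here, and 0.00287 with no filter). From the counts this was 9.32-fold lower, with a 95% interval of 5.01 to 19.2 for counting error. In shSUZ12 cells LRP3 fell too (edgeR adjusted p = 0.0113, and 0.000451 with no filter). Its counts of 1 over the group against 110 in control had a ratio of 0.00907 (95% counting interval 0.000228 to 0.0516). Its 11 counts in shEZH2 cells and 1 in shSUZ12 cells left the difference between the lines uncalled (edgeR adjusted p = 0.117, and 0.100 with no filter). Both comparisons with control lost their call without control replicate 1 or 2, and the shSUZ12 call also without shSUZ12 replicate 1 or 2. Most calls over all genes were lost in those fits too, and each fit left 1 library in a group. Over the fits without 1 library the log2 fold change of LRP3 was -3.60 to -2.86 in shEZH2 cells and -8.75 to -5.57 in shSUZ12 cells. Removing the length trend left LRP3 at -3.10 ± 0.48 in shEZH2 cells.

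**Figure D3:**
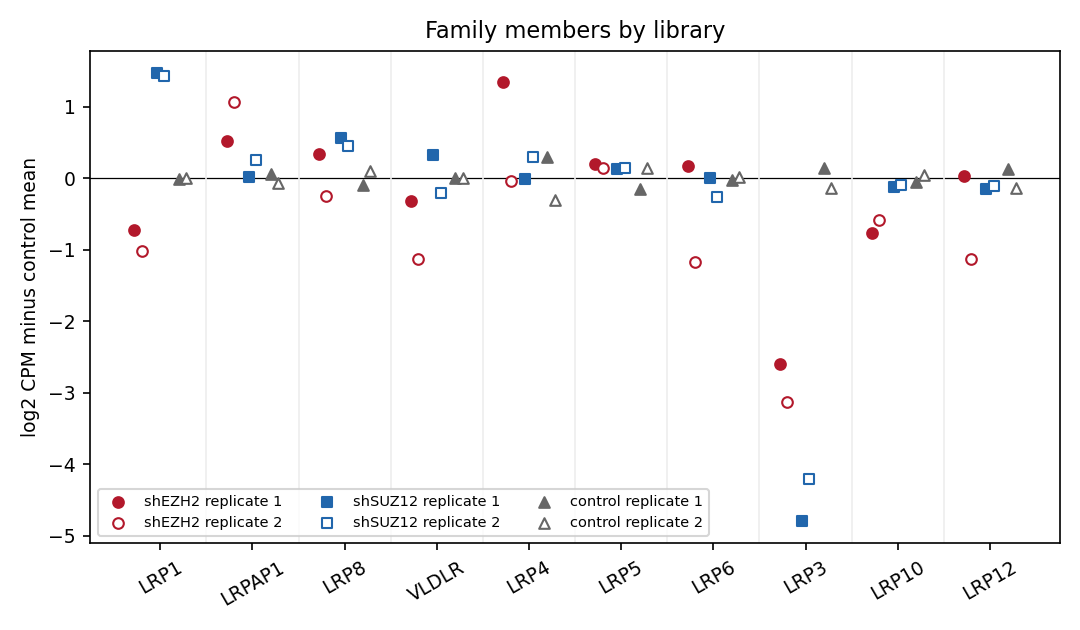
log2 CPM (with a prior count of 2) of each member minus its control mean in each library, for shEZH2 (circles), shSUZ12 (squares) and control (triangles), with replicate 2 open. LRP1 is above 1.4 in both shSUZ12 libraries and below -0.7 in both shEZH2 libraries, and LRP3 is below -2.5 in all 4 knockout libraries.

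LRPAP1, the chaperone (on the minus strand of chromosome 4, 3503597 to 3532559), was present at 202 and 295 CPM in shEZH2 cells, 142 and 167 CPM in shSUZ12 cells and 146 and 134 CPM in control. Both shEZH2 libraries were above every other library, while the shSUZ12 and control libraries overlapped. The log2 fold change of LRPAP1 was 0.83 ± 0.22 in shEZH2 cells and was not called (edgeR adjusted p = 0.0659). It passed by DESeq2 (adjusted p = 0.0161), without a filter on low counts (edgeR adjusted p = 0.0420) and with the length trend removed (edgeR adjusted p = 0.0380). Removing the trend, by the longest transcript, raised it to 1.42 ± 0.38. Without shEZH2 replicate 1 it was 1.07, and without replicate 2 it was 0.56. Its longest annotated transcript is 10598 bases but its coding part is 1071 bases, so the length that applies to LRPAP1 reads is uncertain. Genes under 2000 bases had a median of 0.03 above the control mean in shEZH2 replicate 1 and 0.58 in replicate 2, beside 0.53 and 1.08 for LRPAP1. The shSUZ12 value of LRPAP1 was 0.15 ± 0.22 on the log2 scale. Between shEZH2 and shSUZ12 cells it was 0.68 ± 0.22 (edgeR adjusted p = 0.131).

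The reelin receptors did not pass the test in any comparison. LRP8 (on the minus strand of chromosome 1, 53242364 to 53328070) was present at 80.4 and 53.1 CPM in shEZH2 cells, 93.7 and 86.9 CPM in shSUZ12 cells and 59.1 and 67.7 CPM in control. Both shSUZ12 libraries were above every other library, and the shEZH2 replicates lay on either side of control. The log2 fold change of LRP8 in shSUZ12 cells was 0.51 ± 0.23 (edgeR adjusted p = 0.416). Over the fits without 1 library it was 0.44 to 0.61. In a fit of the shSUZ12 and control libraries alone it was called (edgeR adjusted p = 0.00194), as were 2876 of all genes. In shEZH2 cells LRP8 was at 0.07 ± 0.23 against control, at 0.38 without shEZH2 replicate 2 and at -0.26 without replicate 1. VLDLR (on the plus strand of chromosome 9, 2621834 to 2660053) was present at 15.04 and 8.53 CPM in shEZH2 cells, 23.4 and 16.2 CPM in shSUZ12 cells and 18.7 and 18.7 CPM in control. The shEZH2 libraries were the lowest, and the shSUZ12 libraries surrounded control. The log2 fold change of VLDLR was -0.66 ± 0.31 in shEZH2 cells (edgeR adjusted p = 0.219), and it was -1.13 without shEZH2 replicate 1 and -0.28 without replicate 2. With the length trend removed VLDLR was at -0.31 ± 0.20. Between shEZH2 and shSUZ12 cells VLDLR was at -0.75 ± 0.31 and LRP8 at -0.44 ± 0.23 on the log2 scale (edgeR adjusted p = 0.200 and 0.292). VLDLR-AS1, an antisense gene that overlaps VLDLR, had 2 and 8 counts in shEZH2 cells, 17 and 12 in shSUZ12 cells and 25 and 13 in control. Whether counting used strand is not stated in the sources used here, and the pair may therefore share reads.

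LRP4 (on the minus strand of chromosome 11, 46856868 to 46918642) was present at 16.5 and 6.28 CPM in shEZH2 cells, 6.39 and 7.96 CPM in shSUZ12 cells and 7.97 and 5.18 CPM in control. Only shEZH2 replicate 1 stood apart from the other 5 libraries. Its log2 fold change in shEZH2 cells was 0.79 ± 0.45 (edgeR adjusted p = 0.300), 1.36 without shEZH2 replicate 2 and -0.07 without replicate 1. Of 3 tested partners of LRP4 at the neuromuscular junction, only MUSK was called, and it fell in both lines. Of all genes 6.74% were called in shEZH2 cells and 1.61% in shSUZ12 cells. MUSK had 9 and 3 counts in the shEZH2 libraries. MUSK was at 0.434 and 0.153 CPM in shEZH2 cells, 0.938 and 1.24 CPM in shSUZ12 cells and 5.58 and 6.03 CPM in control (edgeR adjusted p = 0.00644 and 0.0295). AGRN, which encodes agrin, was not called.

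The Wnt co-receptors LRP5 and LRP6 did not pass the test either. LRP5 (on the plus strand of chromosome 11, 68312609 to 68449275) was present at 295 and 282 CPM in shEZH2 cells, 279 and 283 CPM in shSUZ12 cells and 232 and 282 CPM in control. Its libraries varied little, with log2 fold changes of 0.17 ± 0.17 and 0.13 ± 0.17 against control. The partial copy LRP5L, at 3.69 to 12.1 CPM, may share reads with it. LRP6 (on the minus strand of chromosome 12, 12116025 to 12267012) was present at 103 and 40.8 CPM in shEZH2 cells, 91.5 and 76.4 CPM in shSUZ12 cells and 90.2 and 92.9 CPM in control. The shEZH2 replicates fell on either side of all other libraries, a 0.396-fold ratio of replicate 2 to replicate 1. The log2 fold change of LRP6 in shEZH2 cells was -0.35 ± 0.38, -1.17 without shEZH2 replicate 1 and 0.20 without replicate 2. With the length trend removed it was -0.04 ± 0.17.

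Among 33 tested Wnt partners of LRP5 and LRP6, 0 rose and 2 fell in shEZH2 cells, where 6.74% of all genes were called, and 1 rose and 1 fell in shSUZ12 cells, where 1.61% were. DESeq2 called 7 and 5 of the 33, beside 1976 and 527 of all genes. At an unadjusted edgeR p under 0.05 were 14 and 11 of the 33, beside 26.8% and 13.1% of all genes. The Wnt receptor FZD4 was at 11.2 and 7.97 CPM in shEZH2 cells, 15.1 and 17.4 CPM in shSUZ12 cells and 36.9 and 37.9 CPM in control. It fell by 1.96 ± 0.23 on the log2 scale in shEZH2 cells and was at -1.20 ± 0.23 in shSUZ12 cells (edgeR adjusted p = 0.0504). DKK1, a secreted inhibitor that binds LRP6, was at 107 and 96.3 CPM in shEZH2 cells, 112 and 121 CPM in shSUZ12 cells and 275 and 186 CPM in control. It fell by 1.18 ± 0.22 in shEZH2 cells and was at -0.98 ± 0.22 in shSUZ12 cells (edgeR adjusted p = 0.0890). Both genes thus lay below control in all 4 knockout libraries. WNT5A rose by 2.93 ± 0.34 on the log2 scale in shSUZ12 cells, with 2.75 and 1.84 CPM in shEZH2 cells, 7.33 and 6.53 CPM in shSUZ12 cells and 0.810 and 0.997 CPM in control. Its shEZH2 value was 1.34 ± 0.35 (edgeR adjusted p = 0.0606). WNT7B was at 58.1 and 55.3 CPM in shEZH2 cells, 32.6 and 35.1 CPM in shSUZ12 cells and 75.9 and 81.6 CPM in control, and fell by 1.22 ± 0.18 in shSUZ12 cells. The Wnt genes WNT5A and WNT7B thus moved in opposite directions in shSUZ12 cells (edgeR adjusted p = 0.0113 and 0.0212, and 0.00743 and 0.0266 for FZD4 and DKK1 in shEZH2 cells). Between shEZH2 and shSUZ12 cells edgeR called 0 of 33, beside 1.52% of all genes. Of the 33, 9 had an unadjusted p under 0.05, beside 23.9% of all genes. DESeq2 called 4 of them, beside 1304 of all genes. The medians of the 33 were -0.31 in shEZH2 and -0.07 in shSUZ12 cells, against -0.01 and 0.00 over all tested genes.

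LRP10, which cycles between the Golgi and endosomes (on the plus strand of chromosome 14, 22871613 to 22881580), was present at 185 and 211 CPM in shEZH2 cells, 290.5 and 295 CPM in shSUZ12 cells and 306 and 325 CPM in control. Both shEZH2 libraries were well below the other 4. The log2 fold change of LRP10 in shEZH2 cells was -0.67 ± 0.16 and missed the threshold (edgeR adjusted p = 0.0524). It passed by DESeq2 (adjusted p = 0.0202) and without a filter on low counts (edgeR adjusted p = 0.0441). Without shEZH2 replicate 1 it was -0.59, and without replicate 2 it was -0.73. It was -0.29 ± 0.22 with the length trend removed. Between shEZH2 and shSUZ12 cells LRP10 was at -0.56 ± 0.16 (edgeR adjusted p = 0.109). LRP12 (on the minus strand of chromosome 8, 104489231 to 104589024) was present at 61.8 and 27.5 CPM in shEZH2 cells, 54.8 and 56.3 CPM in shSUZ12 cells and 66.3 and 55.1 CPM in control. Only shEZH2 replicate 2 stood apart, with a log2 fold change of -0.44 ± 0.35 for the group, -1.15 without replicate 1 and 0.06 without replicate 2.

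**Figure D4:**
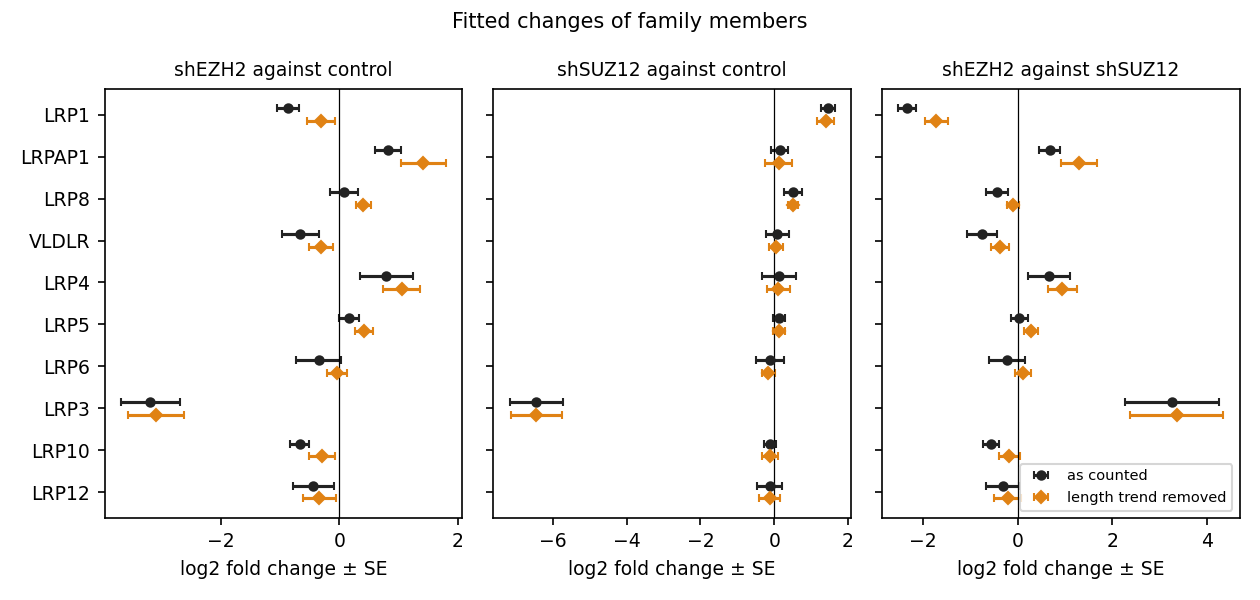
Fitted log2 fold changes with SE of the 10 members in 3 comparisons, as counted (black) and with each library's length trend removed (orange). LRP3 is near -3.2 in shEZH2 and -6.5 in shSUZ12, and LRP1 moves from -0.87 to -0.31 in shEZH2 and stays at 1.46 and 1.40 in shSUZ12. LRP1 is drawn as a description without a test.

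Levels of different members were compared per transcript length as TPM, the share of a gene among all transcripts of its library after division by the longest annotated transcript. LRP5 had the highest level in all 3 groups, at 131 ± 26.01, 153 ± 2.16 and 134 ± 23.5 TPM in shEZH2, shSUZ12 and control cells (SD, n = 2 each). LRP10 was next at 66.5 ± 5.22, 119 ± 1.99 and 123 ± 9.88 TPM, and in control its libraries overlapped with those of LRP5. LRP1 was the seventh of the 10 in shEZH2 and control cells, at 5.00 ± 1.53 and 10.4 ± 0.410 TPM, and the sixth in shSUZ12 cells, at 29.8 ± 0.387 TPM. LRP3 was the lowest in every group, at 1.78 ± 0.188 TPM in control. In control LRP12 was at 39.5 ± 3.72 TPM and LRPAP1 at 35.4 ± 0.984 TPM, a gap about as large as the spread of LRP12. LRP6 and LRP8 were at 24.5 ± 1.43 and 22.3 ± 2.98 TPM, and their libraries overlapped. VLDLR and LRP4 were at 5.47 ± 0.201 and 2.17 ± 0.574 TPM in control, and the libraries of LRP4 overlapped with those of LRP3. Counted over the coding length instead, LRPAP1 was at 145 TPM and LRP10 at 164 TPM in control, and both were then above LRP5 at 59.1 TPM. By coding length LRP1 was below VLDLR, at 4.70 against 7.93 TPM in control and 2.32 against 4.59 TPM in shEZH2 cells. In shSUZ12 cells it was at 13.5 TPM, below LRP6 at 20.2 TPM. The place of LRP1 thus depends on the length used.

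**Figure D5:**
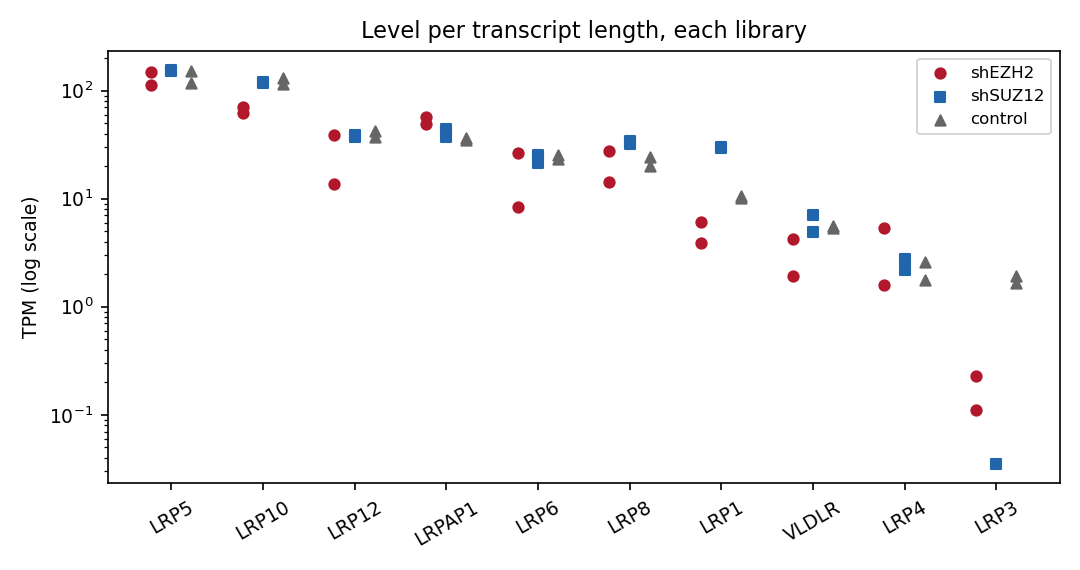
TPM (log scale, over the longest annotated transcript) of each member in each library of shEZH2, shSUZ12 and control cells. LRP5 and LRP10 are highest in control and LRP3 is lowest, and shSUZ12 replicate 1 of LRP3 is not drawn because it had 0 counts.

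Genes whose profile over the 6 libraries lay nearest to that of LRP1 were sought among 10280 genes, by the root mean square difference of centred log2 CPM. The LRP1 profile itself varied by 0.96 around its mean on this measure. Nearest were FAT3, an atypical cadherin, at 0.18, SLFN5 at 0.20, the bicarbonate transporter SLC4A8 at 0.22, the transcription factor SOX4 at 0.25, the oxidase AOX1 at 0.28 and the cyclin CCNG2 at 0.31. FAT3, for example, was at 8.96 and 7.41 CPM in shEZH2 cells, 35.4 and 34.4 CPM in shSUZ12 cells and 14.2 and 10.6 CPM in control. All 6 were chosen by this likeness, so their order of groups follows from the choice. STAT6, which lies on the other strand of chromosome 12 and overlaps the start of LRP1 over 3647 bases, was at 180.4 and 193 CPM in shEZH2 cells, 178 and 178 CPM in shSUZ12 cells and 161 and 172 CPM in control. STAT6 was not called, and its log2 fold changes were 0.16 ± 0.16 and 0.10 ± 0.16 against control. It could share reads with LRP1 if counting ignored strand. NXPH4, which starts 3444 bases beyond LRP1, was at 4.05 and 4.19 CPM in shEZH2 cells, 3.84 and 3.91 CPM in shSUZ12 cells and 5.81 and 5.37 CPM in control. NAB2, SHMT2 and TMEM194A, the other nearest genes that do not overlap LRP1, had log2 fold changes between -0.41 and 0.34 against control, and none of these 4 or STAT6 was called in any comparison. Nearest to LRP3 were MCAM, ITGB2 and TNS4, at 0.51, 0.51 and 0.52.

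Among 16 tested ligands of LRP1, VLDLR and LRP8, 2 rose and 3 fell in shEZH2 cells, where 3.54% of all genes were called higher and 3.2% lower. In shSUZ12 cells 1 rose and 0 fell, where 0.719% were called higher and 0.888% lower. DESeq2 called 8 and 1 of the 16, beside 1976 and 527 of all genes. At an unadjusted edgeR p under 0.05 were 8 and 4 of the 16, beside 26.8% and 13.1% of all genes. SERPINA1, whose protease complexes are taken up by LRP1, was at 13.3 and 21.04 CPM in shEZH2 cells, 9.47 and 8.91 CPM in shSUZ12 cells and 2.30 and 2.28 CPM in control. It rose in both lines (edgeR adjusted p = 0.00539 and 0.0223). RELN, the ligand of VLDLR and LRP8, was at 0.434 and 0.153 CPM in shEZH2 cells, 2.64 and 2.38 CPM in shSUZ12 cells and 1.17 and 1.76 CPM in control. It fell in shEZH2 cells against control and was lower there than in shSUZ12 cells (edgeR adjusted p = 0.0455 and 0.0382). THBS1, a matrix protein cleared by LRP1, was at 430 and 188 CPM in shEZH2 cells, 421 and 518 CPM in shSUZ12 cells and 1199.8 and 812 CPM in control. It fell by 1.70 ± 0.39 on the log2 scale in shEZH2 cells and was at -1.10 ± 0.38 in shSUZ12 cells (edgeR adjusted p = 0.0445 and 0.273). The remaining calls, named after their values were seen, were a rise of the lipase gene LPL by 1.40 ± 0.30 and a fall of PLAT, tissue plasminogen activator, by 1.67 ± 0.29 in shEZH2 cells. The median log2 fold change of the 16 was -0.08 in shEZH2 and 0.01 in shSUZ12 cells, against -0.01 and 0.00 over all tested genes.

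Adaptors, proteases, chaperones and sterol regulators are given by their counts, beside all tested genes. Of these edgeR called 6.74% in shEZH2 cells and 1.61% in shSUZ12 cells, and 26.8% and 13.1% had an unadjusted p under 0.05. DESeq2 called 1976 and 527 of all genes in these comparisons. Median log2 fold changes in shEZH2 and shSUZ12 cells were -0.24 and -0.03 for adaptors, 0.17 and 0.17 for proteases, 0.24 and 0.07 for chaperones and -0.32 and 0.12 for sterol regulators, beside the same -0.01 and 0.00 over all tested genes. Between shEZH2 and shSUZ12 cells edgeR called 0 adaptors, proteases, chaperones or further family genes, with 5, 2, 1 and 1 of them at an unadjusted p under 0.05 and 1, 1, 0 and 0 called by DESeq2. In that comparison edgeR called 1.52% of all genes, 23.9% had an unadjusted p under 0.05 and DESeq2 called 1304 genes. Of 17 tested adaptors of the cytoplasmic tails 0 were called by edgeR in shEZH2 cells, with 6 at an unadjusted p under 0.05 and 1 by DESeq2, and 0 in shSUZ12 cells, with 1 and 0. The most abundant of them, CLTC and AP2B1, had log2 fold changes of -0.24 ± 0.28 and 0.10 ± 0.22 in shEZH2 cells. Of 10 tested proteases that cleave receptors 0 were called by edgeR in either line, with 2 and 3 at an unadjusted p under 0.05 and 0 by DESeq2. MMP14, a membrane metalloproteinase that sheds LRP1, was at 363 and 436 CPM in shEZH2 cells, 753 and 726 CPM in shSUZ12 cells and 507 and 505 CPM in control. Its groups did not overlap and had the same order as LRP1, with a log2 difference of -0.89 ± 0.17 between shEZH2 and shSUZ12 (edgeR adjusted p = 0.0550). Of 4 chaperones other than LRPAP1 0 were called by edgeR in either line, with 3 and 0 at an unadjusted p under 0.05 and 1 and 0 by DESeq2. Of 8 tested sterol regulators 1 fell in shEZH2 cells, SREBF2, a transcription factor that drives sterol genes. There 4 of the 8 had an unadjusted p under 0.05 and DESeq2 called 2. In shSUZ12 cells edgeR called 0, with 0 at an unadjusted p under 0.05 and 0 by DESeq2. Between shEZH2 and shSUZ12 cells edgeR called 1 lower, SREBF2, with 5 at an unadjusted p under 0.05 and 3 by DESeq2. SREBF2 was at 94.9 and 89.1 CPM in shEZH2 cells, 223 and 189 CPM in shSUZ12 cells and 146 and 201 CPM in control (edgeR adjusted p = 0.0442 against control). Of LRP11 and LRP5L, the only tested genes among 4 further family genes, 0 were called by edgeR in either line, with 2 and 0 at an unadjusted p under 0.05 and 1 and 0 by DESeq2.

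The calls of these partner genes depended on the fit and on single libraries. With only the 2 compared groups fitted, FZD4, MUSK and SERPINA1 were still called of the 9 in shEZH2 cells (edgeR adjusted p up to 0.124 for the others), and all 4 in shSUZ12 cells. Without control replicate 1 or 2 the calls in both lines were lost, as were most calls over all genes. Without shSUZ12 replicate 1 or 2, FZD4, MUSK and SERPINA1 were still called in shEZH2 cells, and 0 of 4 were in shSUZ12 cells. Most calls over all genes were lost without shSUZ12 replicate 1 or 2 too. Without shEZH2 replicate 1 or 2 the calls of these partner genes were kept. Every fit without 1 library left 1 library in a group, whose spread then came from the other groups. None of these fits settles a call.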

How the data were processed

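Messenger RNA of 6 MDA-MB-231 libraries was measured, 2 per group. Sample titles gave the groups and the table's columns. The table that the authors deposited holds unnormalized counts by gene symbol. A stranded mRNA kit was used, per the labels' protocols. GRCh38, GenomeStudio 2010.1, R 3.2.5 and STAR appear in the submitters' processing notes without a role. No source used here states the annotation or the strand setting. The 4 entries that name no gene held 16.5 to 21% of counts and were left out. Multimapping reads made up 7.21 to 10.4%.

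Gene counts were 20135270 to 22782742 per library, where 3 counts are 0.134 to 0.153 CPM, and such floors and all counting intervals (95%) cover counting error only. Of 29744 genes, 14192 passed edgeR's filterByExpr. R 4.3.3, edgeR 4.0.16 (TMM, robust quasi-likelihood, all 3 groups, 3 residual degrees of freedom) and DESeq2 1.42.0 (an alternative) were used; Benjamini-Hochberg adjustment ran over all tested genes and calls are under 0.05. An exact permutation test of 2 libraries against 2 cannot go below p = 0.333. The labels do not call replicates separate cultures, and the spread that p-values measure may be technical. The fit was tested on simulated data.

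Positions and lengths are from GENCODE 29 on GRCh38 (23534 symbols matched, 94.1% of tested genes) and promoters from RefSeq on GRCh38.p14, with 7 members matched. TPM was computed from the counts and the longest transcript. The length trend was removed by a loess offset per library.

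Members, gene lists and tests were chosen with earlier results of these data known. Named were all members, for LRP1 the 6 and for LRP3 the 3 genes of at least 5 CPM nearest in profile, the 2 nearest protein-coding genes on each side of LRP1, the gene that overlaps it (added after seeing the data), and at most 3 called genes per list and comparison, or the 2 most abundant where a list had no call. Alternatives were other size factors, no filter, DESeq2, 2-group fits, the length trend removed, a replicate block and each library left out.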

Additional observations from a re-analysis of the deposited data

Results flagged for a closer look

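LRP1 had a log2 difference of -2.32 between shEZH2 and shSUZ12, and every shEZH2 library lay below control while every shSUZ12 library lay above it. This difference was not tested, since LRP1 was picked for it. MMP14 showed the same order of groups, with a log2 difference of -0.89, and its difference missed the threshold (edgeR adjusted p = 0.0550). RELN was lower in the shEZH2 than in shSUZ12 cells by a test of the difference itself, with a log2 difference of -3.06 (edgeR adjusted p = 0.0382), and both shEZH2 libraries lay below both shSUZ12 libraries. SREBF2 likewise differed, with a log2 difference of -1.16 (edgeR adjusted p = 0.0488) and no overlap of libraries. The RELN and SREBF2 differences were not called with only the shEZH2 and shSUZ12 libraries fitted (edgeR adjusted p = 0.131 and 0.133). They were also lost without either control library and without shSUZ12 replicate 1 or 2, as were most calls over all genes. Each fit without 1 library left 1 library in a group.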

How the results depend on the processing

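Counts of all genes called moved with the procedure. For shEZH2 against control the count of 957 was 1471 without a filter, 1976 by DESeq2, 216 with only the 2 groups compared and 2294 with the length trend removed. For shSUZ12 against control the count of 228 was 399, 527, 2876 and 663 under these settings in turn. For shEZH2 against shSUZ12 the count of 216 was 718, 1304, 1 and 1271, and 368 with the replicate number as a block. Leaving out 1 library gave 5 to 7853, 10 to 3044 and 0 to 7590; the lone library of a group was taken to vary as the other groups do. Members called other than LRP1 were 3 without a filter, 3 by DESeq2 and 2 with the length trend removed in shEZH2 against control, and 2 with only the 2 groups compared in shSUZ12 against control. Without 1 library they ranged from 0 to 6, 0 to 2 and 0 to 6 over the 3 comparisons. LRP1 was at -0.31, 1.40 and -1.71 with the length trend removed, and at -1.02 to -0.70, 1.43 to 1.47 and -2.47 to -2.15 without 1 library. Of other members, LRP6 turned to 0.11 between shEZH2 and shSUZ12 with the length trend removed. Directions changed without 1 library, in shEZH2 against control, for LRP4 (-0.07 to 1.36), LRP6 (-1.17 to 0.20), LRP8 (-0.26 to 0.38) and LRP12 (-1.15 to 0.06). In shSUZ12 against control they changed for VLDLR (-0.21 to 0.32), LRP4 (-0.16 to 0.49) and LRP12 (-0.26 to 0.03), and between shEZH2 and shSUZ12 for LRP4 (-0.19 to 1.23), LRP6 (-1.04 to 0.33) and LRP12 (-1.01 to 0.19). The cause was not tested. Of 45 pairs of members, 35 kept their order per length with median transcript lengths and 40 with coding lengths, a setting chosen after seeing the data. The replicate numbers do not pair the libraries by the labels, and the same-numbered deviations correlated at 0.165, 0.116 and 0.0930. With the block, counts of all genes called in the comparisons with control were 1233 and 328, and no member's call changed. LRP3 counts limit its precision.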
